A study of Mus musculus with 10 samples.

Results

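The glycolysis and hypoxia genes described here are 36 mouse genes: 27 that carry glucose into the cell, break it down to pyruvate and lactate or control that flow, and 9 that belong to the response to low oxygen. A member was measured through probe sets whose array annotation names that gene alone, and the brightest of these on average stood for it. By this rule 32 of the 36 members, 24 of glycolysis and 8 of hypoxia, were measured among 18193 genes in all. Gpi1 and Eno1 had no probe set under those names in the annotation used here. Gapdh and Bnip3l were each named by 3 probe sets only together with other genes, so they have no value as members, although control probe sets for Gapdh exist and are described below.

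RNA came from CD4+CD25+ T cells, among which regulatory T cells are found, of combined lymph nodes from BALB/c mice aged 17 to 19 days. The groups were me, homozygous for a knockout of SHP-1 with the motheaten phenotype (3 arrays), he, heterozygous for it (3 arrays), and WT, wild type (4 arrays). SHP-1 is a tyrosine phosphatase encoded by Ptpn6. The labels name no tissue restriction of the knockout, and the allele is not given in the sources used here. The cells were prepared with a commercial isolation kit and neither treated nor cultured, and 20 ng of RNA was amplified for each Affymetrix array. The labels call the arrays biological replicates without naming separate animals, so p-values measure only the spread between these samples, which may be technical. The comparisons ask whether these transcripts differ after loss of SHP-1 from 1 allele or from both.

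At the dimmer of its probe sets Ptpn6 measured 8.05 to 8.31 in me, 8.71 to 8.98 in he and 9.08 to 9.62 in WT, as log2(intensity + 32), the scale of every level below. Foxp3, the factor that defines regulatory T cells, lay at 10.68 to 11.58 in me, 10.74 to 11.45 in he and 10.60 to 11.41 in WT. The arrays fell into 2 sets by correlation, A (me 1, me 3, he 1, WT 1, WT 2) and B (me 2, he 2, he 3, WT 3, WT 4), with r of 0.970 to 0.996 within sets and 0.854 to 0.944 between them. By Xist and Eif2s3y, me 1, me 2, WT 2 and WT 4 were male and the others, with all of he, female. The array set is not a batch that the labels name. Both sets held arrays of each genotype, and differences are given without a block and, where they matter, with array set as a block or within a set. Values within set B rest on me 2 alone for me, and values within set A rest on he 1 alone for he. Since the samples are bulk RNA, fewer cells of a type and less RNA per cell cannot be told apart.

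Glycolysis splits glucose into pyruvate in the cytosol, and lactate dehydrogenase turns pyruvate into lactate. Under low oxygen the factor HIF-1, whose regulated subunit is the product of Hif1a, escapes prolyl hydroxylation and degradation, and it then switches on glucose carriers, glycolytic enzymes and other targets through short DNA elements. Activated T cells raise glycolysis, and in regulatory T cells of mice the use of glucose and the activity of HIF-1 are known to affect their stability and function.

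The core of the element that HIF-1 binds is ACGTG or GCGTG. Promoter windows of 250 bases before to 50 after the start of a gene (RefSeq, GRCm38.p6) were matched for 33 of the 36 members, and those for Slc2a3, Bnip3l and Ndrg1 were not used here. The 4 windows below are shown because they belong to members that the results turn on and differ in how many cores they hold. Capitals mark each core on either strand, overlapping matches being merged into 1 site.

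Ankrd37 (chr8:45999801-46000100, minus strand): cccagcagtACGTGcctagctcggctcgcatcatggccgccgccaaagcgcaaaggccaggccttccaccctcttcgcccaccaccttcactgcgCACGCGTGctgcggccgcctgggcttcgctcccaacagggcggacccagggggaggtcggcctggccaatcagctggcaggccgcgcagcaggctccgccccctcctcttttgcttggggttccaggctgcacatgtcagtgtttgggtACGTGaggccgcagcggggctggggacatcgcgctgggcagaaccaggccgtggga

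Hif1a (chr12:73907617-73907916, plus strand): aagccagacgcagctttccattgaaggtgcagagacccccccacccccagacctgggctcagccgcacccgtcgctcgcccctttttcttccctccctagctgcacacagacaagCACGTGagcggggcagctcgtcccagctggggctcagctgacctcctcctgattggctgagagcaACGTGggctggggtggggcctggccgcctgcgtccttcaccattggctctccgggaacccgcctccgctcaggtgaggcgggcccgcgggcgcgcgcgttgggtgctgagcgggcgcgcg

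Ldha (chr7:46845554-46845853, plus strand): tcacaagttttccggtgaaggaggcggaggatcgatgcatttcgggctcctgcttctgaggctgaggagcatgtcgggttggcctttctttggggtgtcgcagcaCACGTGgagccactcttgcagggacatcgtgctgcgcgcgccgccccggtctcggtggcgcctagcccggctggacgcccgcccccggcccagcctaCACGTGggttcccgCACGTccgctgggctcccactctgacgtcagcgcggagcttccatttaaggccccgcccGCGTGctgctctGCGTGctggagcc

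Tpi1 (chr6:124814109-124814408, minus strand): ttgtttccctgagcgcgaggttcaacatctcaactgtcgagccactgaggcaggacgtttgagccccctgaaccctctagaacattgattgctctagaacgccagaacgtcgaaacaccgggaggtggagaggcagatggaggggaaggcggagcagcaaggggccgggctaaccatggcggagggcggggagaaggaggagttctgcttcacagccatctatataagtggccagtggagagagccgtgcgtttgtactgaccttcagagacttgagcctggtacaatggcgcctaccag

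The Ldha window shown held 5 sites, that of Ankrd37 held 3, that of Hif1a held 2 and that of Tpi1 held 0. A core was present in a window of 30 of the 33 members (90.9%), against 46.7% of 27025 genes with a promoter entry. Among genes that also had a probe set of their own it was present for 28 of 30 members (93.3%), against 59.3% of 14452 genes. ACGTG alone was found in 23 of the 33 (69.7%), against 21.8% of all genes. Members had more windows per gene, and by window either core was present in 80.9% of 47 member windows, against 43.8% of all 32851. The members include known targets of HIF-1, so a high share was partly built into the list. The members' windows were richer in G and C, with a median of 62.0%, against 52.7% over all windows, and both cores are CpG-containing words. A match is a description of the letters, not a bound site.

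No member passed the test in any of the 3 comparisons. Of 45037 probe sets limma called 0 (0%) for me against WT at an adjusted p under 0.05, while 280 (0.622%) had an unadjusted p under 0.05. With array set as a block it called 3 probe sets (0.00666%), all lower in me and none a member. Levels and differences of the members are therefore given with their errors and with no claim of change. Among genes, 159 of 18193 (0.874%) had an unadjusted p under 0.05 between me and WT, and 1 of the 32 members, Slc2a3, did. With the block these were 918 genes (5.05%) and 4 members, Slc2a3, Ankrd37, Hif1a and Vegfa.

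Slc2a3, which encodes a high-affinity glucose carrier, measured 10.93, 10.98 and 11.06 in me, 10.80, 10.60 and 10.31 in he, and 10.89, 10.49, 10.47 and 10.50 in WT. All me arrays lay above every he and WT array, although me 1 exceeded WT 1 by little, and he and WT overlapped. The difference between me and WT was 0.40 ± 0.14 (log2, SE), a 1.32-fold higher level (limma, unadjusted p = 0.0173, adjusted p = 1.00). With array set as a block it was 0.37 ± 0.11 (adjusted p = 0.989), and it was 0.31 within set A and 0.50 within set B. Against he it was 0.42 ± 0.15, with 0.19 within set A and 0.53 within set B. Slc2a3 was the only one of 32 members whose me arrays did not overlap WT, where 294 of 18193 genes (1.62%) did not, and the only one whose me arrays did not overlap he, where 453 genes (2.49%) did not. The other 3 probe sets of the gene differed between me and WT by 0.28 ± 0.13, 0.10 ± 0.18 and -0.12 ± 0.22, so the larger differences were those of the 2 brightest probe sets.

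Slc2a1, which encodes the main glucose carrier of activated T cells, measured 10.05, 9.56 and 10.05 in me, 10.22, 9.53 and 9.37 in he, and 10.20, 10.64, 9.41 and 9.51 in WT. These values divided by array set rather than by genotype, and set B was lower by 0.76. The me minus WT difference was -0.06 ± 0.33 without and -0.18 ± 0.12 with the block. The lactate carriers Slc16a1 and Slc16a3 differed between me and WT by -0.03 ± 0.32 and 0.19 ± 0.19.

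Upper glycolysis, the steps that trap glucose and split it into triose sugars, had 7 of its 9 measured members higher in me than in WT, with a median difference of 0.02. The largest of these differences was that of Tpi1, which interconverts the products of aldolase. Tpi1 measured 11.07, 10.67 and 11.09 in me, 10.75, 10.01 and 10.75 in he, and 10.67, 10.94, 10.04 and 10.57 in WT. Both me arrays of set A were above all others, while me 2 lay within the WT range. The me minus WT difference was 0.39 ± 0.25, or 0.32 ± 0.18 with the block, and its 3 probe sets gave 0.37 to 0.39. The same probe set differed by 0.44 ± 0.27 between me and he.

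Hk2, the inducible hexokinase that traps glucose in the cell, measured 8.25, 7.60 and 8.11 in me, 8.19, 7.77 and 7.50 in he, and 8.14, 8.26, 7.65 and 7.80 in WT. Its me minus WT difference of 0.02 ± 0.22 turned to -0.06 ± 0.08 with the block. Pfkm, the muscle form of phosphofructokinase, measured 7.996, 7.76 and 8.04 in me, 8.04, 7.72 and 7.56 in he, and 8.03, 8.11, 7.75 and 7.69 in WT. In both genes the high values were those of set A in every genotype. The remaining measured members of these steps, Hk1, Hk3, Pfkl, Pfkp, Aldoa and Aldoc, had me minus WT differences from -0.07 to 0.09. Aldoa was at 0.08 ± 0.17, while its other probe sets gave 0.21 ± 0.18, 0.21 ± 0.24, 0.23 ± 0.19 and -0.05 ± 0.12.

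Lower glycolysis, from which ATP and lactate come, had 5 of its 7 measured members higher in me than in WT, but 3 of 7 with the block. Pkm, the pyruvate kinase of most tissues, measured 10.75, 10.93 and 10.99 in me, 10.61, 10.62 and 10.99 in he, and 10.59, 10.87, 10.61 and 10.84 in WT. Its difference was 0.16 ± 0.12 between me and WT. Ldha, the subunit of lactate dehydrogenase that favours lactate, measured 12.93, 12.76 and 12.88 in me, 12.76, 12.60 and 12.93 in he, and 12.77, 12.66, 12.61 and 12.79 in WT. Ldha differed by 0.15 ± 0.09 between me and WT, and all its arrays lay within a narrow band. Pgk1 and Pgam1 differed between me and WT by -0.05 ± 0.12 and 0.00 ± 0.18, Eno2 by 0.07 ± 0.20 and Ldhb by 0.08 ± 0.35. The other probe sets of Pgk1 gave 0.12 ± 0.14 and -0.14 ± 0.11. Eno3, the muscle enolase, had the lowest difference of all members, -0.27 ± 0.26.

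Gapdh, the enzyme between these parts of the pathway, was seen only through the control probe sets of the array for this transcript. Their levels also report how far the amplified RNA reaches from its 3′ end. The deposited 3′ control intensity averaged 7249 ± 2010 in me, 5851 ± 2635 in he and 7643 ± 2794 in WT (SD, n = 3, 3 and 4). Its 2-sided exact permutation p between me and WT was 0.857. The 3′ control ran from 8060 to 10261 in set A and from 4085 to 5955 in set B, and the test took no account of set. It therefore cannot decide whether Gapdh differed between me and WT. The ratio of the 3′ to the 5′ control was 10.9, 9.92 and 13.8 in me, 9.71, 7.88 and 8.53 in he, and 9.53, 7.84, 9.27 and 7.90 in WT. Every me ratio exceeded every he and WT ratio. In 2-sided exact permutation tests the me ratios gave p = 0.0571 against WT and p = 0.1 against he. No smaller value can be reached with so few arrays. The he ratios gave an exact p = 0.857 against WT. The same ratio for the actin control had the opposite order of means, 12.8 ± 0.97 in me and 15.0 ± 2.53 in WT (SD, exact permutation p = 0.343). The part of this RNA measure in the members' values was not tested.

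**Figure D1:**
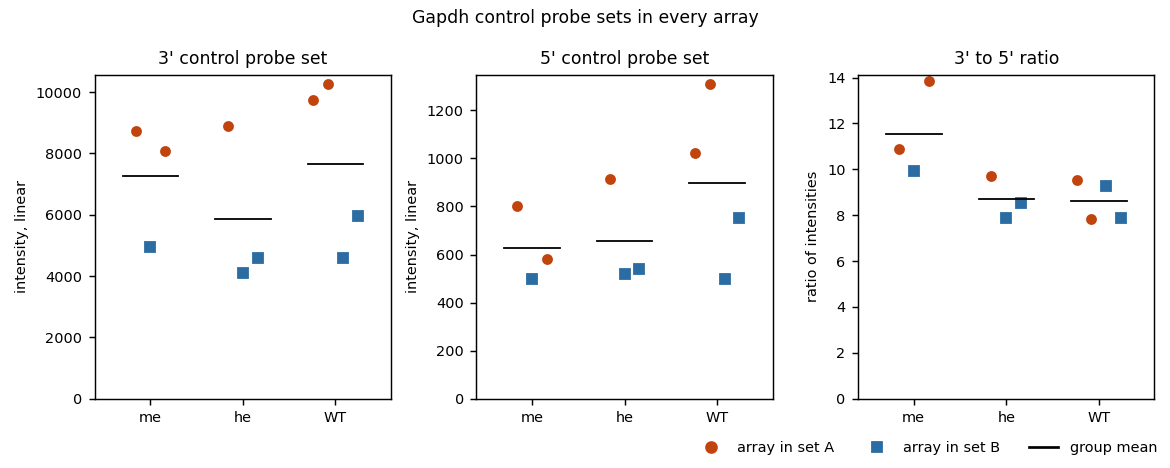
Gapdh control probe sets, with 1 point per array (circles set A, squares set B) and a line at each group mean, the me arrays at the left, then he and WT. The 3′ to 5′ ratio was 9.92 to 13.8 in me and 7.84 to 9.53 in WT, and the 3′ control itself followed array set.

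Of the 4 measured regulators of flux, 2 were higher in me than in WT. Pdk1 and Pdk3 encode kinases that shut pyruvate dehydrogenase and so keep pyruvate from the mitochondrion, while Pfkfb3 and Pfkfb4 make the metabolite that drives phosphofructokinase. Pdk1 measured 8.67, 8.06 and 8.41 in me, 8.74, 8.34 and 7.52 in he, and 8.70, 8.56, 7.93 and 7.78 in WT, a me minus WT difference of 0.14 ± 0.33. Pdk3 measured 9.01, 8.54 and 9.04 in me, 8.86, 8.27 and 8.32 in he, and 8.88, 9.16, 8.44 and 8.32 in WT. Its arrays of set A were above those of set B in every genotype. Pfkfb3 and Pfkfb4 differed between me and WT by -0.16 ± 0.29 and -0.04 ± 0.16.

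The hypoxia members had positive me minus WT differences in 7 of 8, with a median of 0.16. Hif1a measured 12.13, 11.54 and 11.86 in me, 11.94, 11.40 and 11.44 in he, and 11.82, 11.52, 11.11 and 11.42 in WT. The me arrays overlapped both other groups, and the difference to WT was 0.37 ± 0.21, or 0.30 ± 0.10 with the block (limma, unadjusted p = 0.0179, adjusted p = 0.989), with 0.33 in set A and 0.27 in set B. Its 4 probe sets gave 0.43, 0.37, 0.21 and 0.02. In he the difference to WT was 0.13 ± 0.21.

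Ankrd37, a small ankyrin repeat protein and HIF-1 target, measured 8.09, 7.65 and 7.89 in me, 7.75, 7.45 and 7.37 in he, and 7.83, 7.72, 7.37 and 7.35 in WT. In each array set the me arrays (in set B only me 2) lay above all he and WT arrays, although over both sets they overlapped. The mean level of Ankrd37, 7.65, was near the median of all probe sets, below which Slc16a3 lay at 7.60. The difference to WT was 0.31 ± 0.16, or 0.24 ± 0.06 with the block (limma, unadjusted p = 0.00295, adjusted p = 0.835), and 0.21 and 0.29 within sets A and B. Against he it was 0.35 ± 0.17, or 0.23 ± 0.07 with the block.

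P4ha1, which hydroxylates collagen proline, measured 8.83, 7.97 and 8.61 in me, 8.76, 8.16 and 7.98 in he, and 8.63, 8.42, 8.01 and 7.84 in WT, a me minus WT difference of 0.24 ± 0.28. With the block it was 0.13 ± 0.09, within set B 0.047, and without me 1 or me 2 it was 0.06 or 0.49. Egln1, the main oxygen-sensing prolyl hydroxylase, measured 9.66, 9.65 and 9.55 in me, 9.60, 9.51 and 9.23 in he, and 9.67, 9.52, 9.59 and 9.29 in WT. The Egln1 difference was 0.10 ± 0.11 against WT and 0.17 ± 0.12 against he. These groups overlapped.

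Vegfa, the vascular growth factor, was the 1 hypoxia member higher in set B, by 0.51. It measured 7.60, 8.07 and 7.54 in me, 7.53, 8.08 and 8.16 in he, and 7.49, 7.39, 7.87 and 7.91 in WT. Within each set the me and he arrays lay above all WT arrays. With array set as a block the differences were 0.15 ± 0.05 for me and 0.17 ± 0.05 for he against WT (limma, unadjusted p = 0.0161 and 0.00868), against 0.07 ± 0.21 and 0.26 ± 0.21 without it. A second probe set of Vegfa, of nearly the same mean level (7.74, against 7.77), gave -0.04 for me and 0.03 for he with the block, so the 2 probe sets disagree. Both levels, like that of Ankrd37, were not far above the median of all probe sets. The other hypoxia members were Egln3, at -0.09 ± 0.45 between me and WT, Bnip3, a mitophagy receptor, at 0.13 ± 0.28, and Ndrg1 at 0.19 ± 0.34. With the block they were at -0.25 ± 0.24, 0.02 ± 0.10 and 0.05 ± 0.12, in that order.

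**Figure D2:**
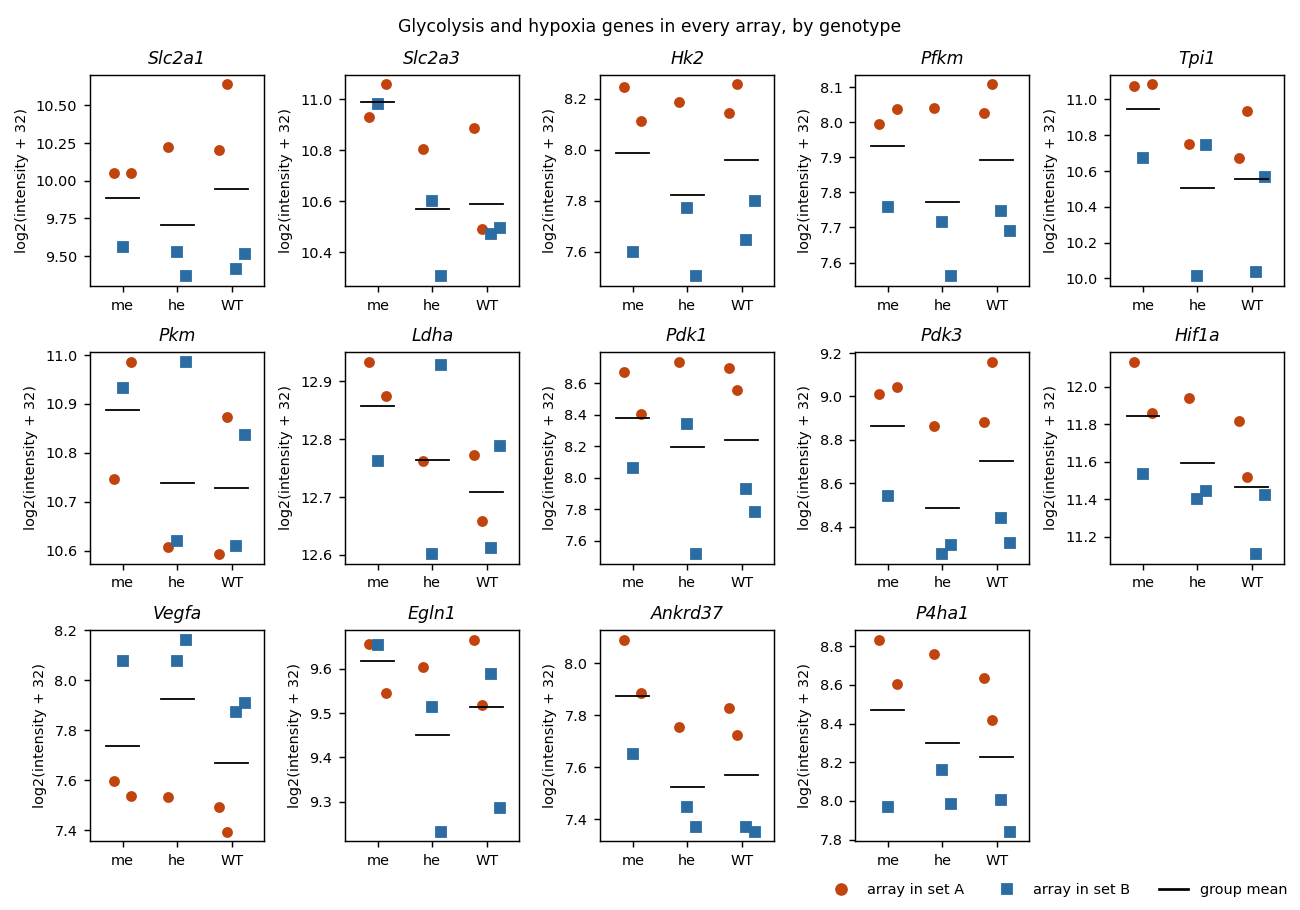
Levels of 14 members in each array on a log2(intensity + 32) axis, each panel with its own scale (circles set A, squares set B, line the group mean), me left, then he, then WT. Slc2a3 has all me points above the rest, while Slc2a1, Hk2 and Pdk3 part by array set.

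**Figure D3:**
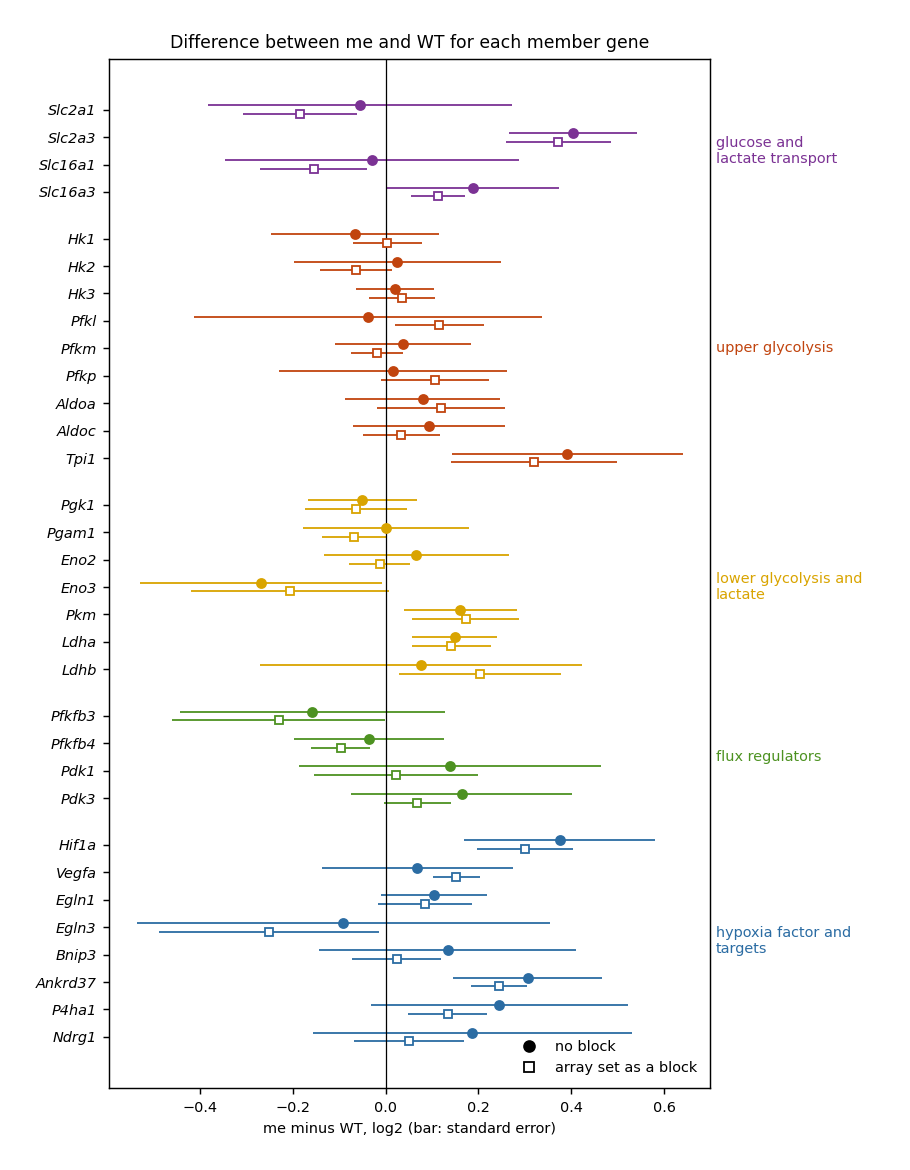
The me minus WT difference of all 32 measured members on a log2 axis, ordered by role, as dots without a block and open squares with array set as a block (bars, standard error). Slc2a3 (0.40), Tpi1 (0.39) and Hif1a (0.37) lie farthest above 0, and the bars of most members cross 0.

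Counts over the members were set beside all genes. They rest on the brightest probe set of each gene, and the members were chosen with earlier results of these data known. Of the 20 members with more than 1 probe set, 9 had probe sets that differed in sign between me and WT. Between me and WT, 16 of 24 glycolysis members (12 of 24 with no normalisation) and 7 of 8 hypoxia members were higher in me, against 50.2% of all genes. The median differences were 0.03 and 0.16, against 0.00 for all genes. Without me 1 the hypoxia members had 5 of 8 higher and a median of 0.07, and without me 2 or WT 1 a median of 0.35 or 0.32. With the block the counts were 14 of 24 and 7 of 8 (49.4% of genes), with medians of 0.03 and 0.11. Between me and he 19 of 24 and 7 of 8 were higher in me (53.6% of genes), with medians of 0.13 and 0.17, but 15 of 24 and 4 of 8 with the block (52% of genes), with medians of 0.05 and 0.01. Without me 1 the hypoxia count was also 4 of 8, with a median of 0.045, while without he 1 its median was 0.42. Leaving out single arrays moved the glycolysis median between me and he from 0.08 to 0.21. Between he and WT 5 of 24 and 4 of 8 were higher in he (46.9% of genes), with medians of -0.06 and -0.01. With the block the he counts were 7 of 24 and 5 of 8 (47.5% of genes), with medians of -0.045 and 0.09, so the hypoxia median changed sign. That median was -0.16 without he 1 and 0.16 without he 2, and the glycolysis median -0.18 and -0.025. Without he 2 the glycolysis count was 10 of 24, and the hypoxia count ran from 1 of 8 without he 1 to 7 of 8 without he 3. Centring each array on its median in place of quantile normalisation gave 64.7% of all genes higher between me and he, with 22 of 24 glycolysis members, and 35.4% between he and WT, with 1 of 24. The me and he comparisons share the WT arrays, and me against WT shares its me arrays with me against he.

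No member passed between me and he or between he and WT. limma called 0 probe sets in each (0%), with 301 (0.668%) and 134 (0.298%) at an unadjusted p under 0.05, and in the moderated F test over the 3 genotypes also 0, with 199 (0.442%). Among members, an unadjusted p under 0.05 was reached by 1 between me and he (Slc2a3, where 0.841% of genes did so) and by 0 between he and WT (0.335%). With the block the counts were 3 members between me and he (Ankrd37, Slc2a3 and Pdk3, where 3.53% of genes did so) and 1 between he and WT (Vegfa, 2.29%). No member's he arrays were separate from WT, where 162 genes (0.89%) were. For he against WT, Pdk3 differed by -0.22 ± 0.24 and Pfkm by -0.12 ± 0.15. Leaving out single arrays, Pdk3 ran from -0.41 without he 1 to -0.065 without WT 2, and Pfkm from -0.25 without he 1 to -0.014 without he 3.

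**Figure D4:**
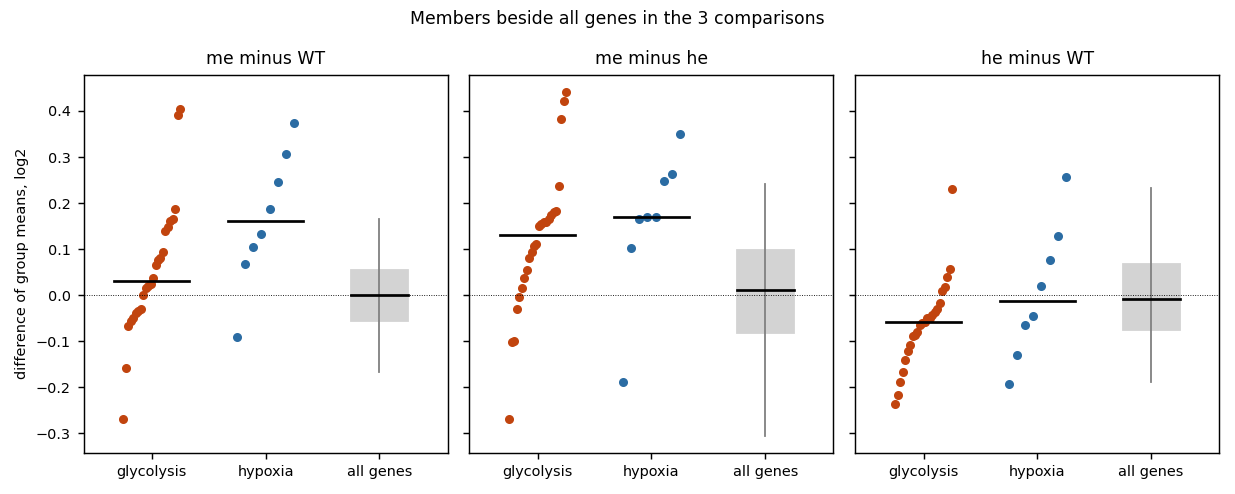
Log2 differences of the members in the 3 comparisons, with glycolysis and hypoxia apart (dots, members; line, median) beside all genes (box, the middle quartiles; thin line, the central range without the outer tails). The hypoxia dots sit mostly above 0 in me minus WT, with a median of 0.16, while most glycolysis dots lie below 0 in he minus WT.

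Set B was lower than set A in 23 of 32 members (71.9%), against 55.2% of all genes. The set shifts (B minus A) ran from -0.92 in Egln3 to 0.92 in Pfkl, and were -0.80 in Ndrg1 and 0.71 in Ldhb. They were small in Ldha (-0.06), Pkm (0.04) and Pgk1 (-0.08). Marker sums of other cells divided the same way. CD8 and NK cell markers (7 of 8 measured) summed to 3878 to 6608 in the 5 arrays of set B, against 1209 to 1434 in the 5 arrays of set A, and red cell markers (4 of 6) to 799 to 1021 in set B, against 542 to 633 in set A. B cell markers (7 of 8) summed to 1281 to 1476 in set B, against 1076 to 1278 in set A. For lymph node stroma (6 of 6) the sums were 999 to 1041 and 854 to 909. Except for CD8 and NK cells these sums were low. The deposited array medians divided as well, at 176 to 188 in set B and 148 to 154 in set A. These divisions held in every genotype, and their part in the members' set shifts was not tested. Within both sets, me exceeded WT for 16 of 32 members (50%), against 23.9% of all genes, and was below it in both for 7 (21.9%), against 29.9%. In the order of group means, me was highest in 21 of 32 members, against 37.3% of genes, and he was lowest in 20, against 42.7%. These orders are without the block, and me arrays were mostly of set A and he arrays mostly of set B. Between me and he, 26 of 32 members were higher in me without the block and 19 with it (53.6% and 52% of genes). Between he and WT, 9 and 12 were higher in he (46.9% and 47.5% of genes). The part of array set in these orders was not tested.

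**Figure D5:**
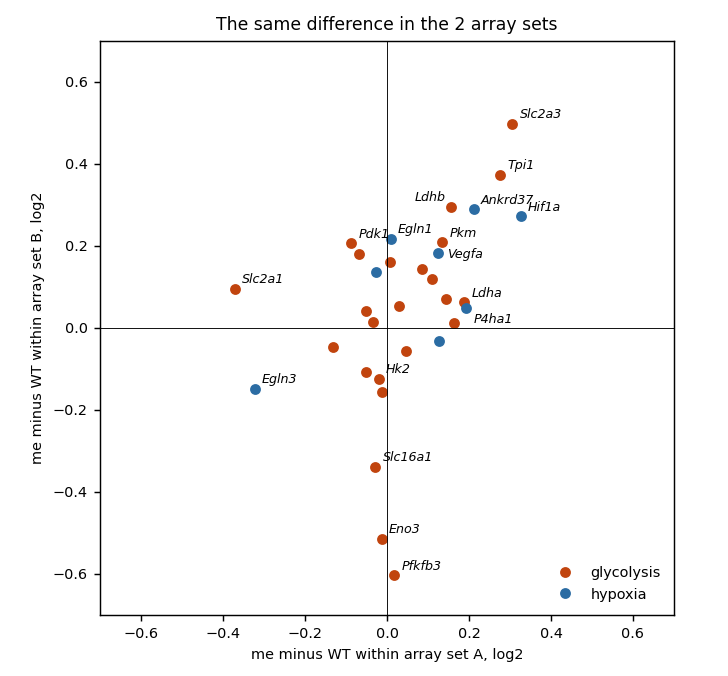
The me minus WT difference of each member in set A (horizontal) and in set B (vertical), both log2. Points of Slc2a3 (0.31 and 0.50), Hif1a (0.33 and 0.27), Tpi1 and Ankrd37 lie in the upper right, where both sets gave a positive difference.

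Neighbouring pathways gave no called gene in any of the 6 lists. Of other hypoxia targets, 15 of 19 measured genes were higher in me than in WT, but 10 of 19 with the block, and 2 of the 19 had me arrays apart from WT, against 1.62% of all genes. The list was chosen with earlier results of these data known, so these counts describe it and test nothing. Bhlhe40, a basic helix-loop-helix repressor induced in activated T cells, measured 10.96, 11.23 and 10.91 in me, 10.33, 10.41 and 10.25 in he, and 10.20, 10.47, 10.15 and 10.55 in WT, a me minus WT difference of 0.69 ± 0.12. Plin2, which coats lipid droplets, measured 10.07, 9.66 and 10.12 in me, 9.55, 9.30 and 9.56 in he, and 9.65, 9.52, 9.16 and 9.41 in WT, a difference of 0.51 ± 0.15. In both genes every me array lay above every he and WT array, although me 2 and WT 1 were nearly level for Plin2. Among regulators of HIF, 8 of 10 were higher in me, but 6 of 10 with the block, with Rbx1, a ring protein of the ubiquitin ligase that marks HIF for degradation, at 0.11 ± 0.06 (me arrays just above WT) and Hif3a at 0.09 ± 0.19. Of mTORC1 and Myc genes 2 of 11 were higher in me, with Myc, a growth-promoting transcription factor, at -0.14 ± 0.12 and Tsc1, an inhibitor of mTORC1, at -0.07 ± 0.09.

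Other glycolytic isozymes and carriers were higher in me in 7 of 13, with Slc2a6 at 0.12 ± 0.11 and Slc2a4 at -0.12 ± 0.23. Genes of pyruvate entry into mitochondria were higher in 6 of 11, with Pdhb at -0.11 ± 0.10 and Dld at 0.08 ± 0.13. The pentose phosphate pathway, which makes NADPH, had 3 of 6, with Taldo1 at 0.18 ± 0.21 and Rpia at -0.08 ± 0.29.

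Markers of other cell types were read in the same arrays. The summed plasma cell level (linear, 7 of 8 markers measured) was 6333 to 16641 in me, 4910 to 6487 in he and 4285 to 6417 in WT. All 7 had a higher mean in me than in WT, but 4 of 7 with array set as a block. Neutrophil markers (8 of 9) summed to 1207 to 1886 in me, 1202 to 1637 in he and 1166 to 1477 in WT, with 7 of 8 higher in me, and macrophage and monocyte markers (8 of 9) to 1329 to 1866 in me, 1185 to 1838 in he and 1220 to 1475 in WT. Markers of dividing cells (7 of 8) summed to 17453 to 23626 in me, 15172 to 23295 in he and 16013 to 21352 in WT. Markers of T cells themselves (8 of 8) summed to 16580 to 18332 in me, 16403 to 17721 in he and 14766 to 16551 in WT. That sum was thus just above WT in every me array, with 5 of 8 markers higher in me and 0 of 8 with separate me and WT arrays. Within set A the plasma cell sum was 12559 and 16641 in me, 6487 in he and 6353 and 6417 in WT, and within set B it was 6333 in me, 4910 and 4921 in he and 4285 and 4838 in WT. The macrophage sum was likewise above WT in both sets, at 1329 and 1591 in me against 1220 and 1249 in WT within set A, and at 1866 in me against 1473 and 1475 in WT within set B. The macrophage and neutrophil sums, each over 8 markers, were low, since the median of single probe sets was 148 to 188 as deposited. How much of these sums is background was not tested. Of single markers, 3 of 7 for plasma cells and 3 of 8 for neutrophils had me arrays above every WT array, against 1.62% of all genes that did not overlap in either direction. These lists too were chosen with earlier results of these data known. Over both sets the summed ranges of neutrophil, macrophage and dividing cell markers overlapped between me and WT, and that of plasma cells did so only through me 2. The part of these markers in the members' differences was not tested.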

How the data were processed

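The authors deposited 1 linear intensity for each probe set and array. How they corrected background, summarised probes and scaled arrays is not stated in the labels or file headers. The array medians were 148 to 188, and the lowest value on an array was 72.4 to 81.5. From these deposited intensities log2(intensity + 32) was computed and quantile normalised over 45101 probe sets, after which 64 controls were dropped, so that 45037 were tested. By annotation 34945 named a single gene, 932 named several and 9160 named no gene.

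limma (version 3.58.1, R 4.3.3) was fitted to the 10 arrays together without a block (7 residual degrees of freedom) and again with array set blocked (6). P-values were adjusted by Benjamini-Hochberg across every tested probe set, and 0.05 was the threshold. Array sets came from clustering on correlation. Control ratios were set against each other by exact permutation, 2-sided. The procedure was tested on simulated data. The number of arrays limits the precision.

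Members and lists were chosen with earlier results of these data known. Values in every array are given for the members with the smallest unadjusted p in each class and comparison, and for Slc2a1, Hk2, Gapdh, Pkm, Ldha, Pdk1, Hif1a and Vegfa whatever their values. Of each neighbouring list the 2 genes with the smallest p between me and WT are named. Alternatives changed the block, normalisation, pseudocount, filter, prior, array weights, choice of probe set and samples.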

Additional observations from a re-analysis of the deposited data

Results flagged for a closer look

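Slc2a3 in WT 1 measured 10.89, while the nearest of the other WT arrays measured 10.50. This gap was 0.943 of the range of the 4 WT arrays, above Dixon's critical value for a group of that size. Chance flags about 1 in 20 groups. Without WT 1 the me minus WT difference of Slc2a3 was 0.50.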

How the results depend on the processing

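Over 15 other settings and 10 that each left out 1 array, 469 of 500 values of named members kept their direction and 31 reversed. Settings that changed only the prior cannot alter a difference, so their values count as kept whatever the data. Apart from array weights, the lowest adjusted p of a named member was 0.654 (limma). The cause of the shifts below was not tested. For me against WT, array set as a block called 3 probe sets and array weights 2. Hk2 turned negative, at -0.030 with the replicate block, -0.064 with array set as a block, -0.085 with array set and sex, -0.0045 with no normalisation, -0.020 within set A and -0.12 within set B. Pdk1 gave -0.015 with the replicate block and -0.088 within set A. Slc2a1 turned positive, at 0.061 with me 3 counted in set B, 0.12 with array weights, 0.010 with the mean of all probe sets and 0.10 within set B. Vegfa gave -0.0016 with me 3 in set B and -0.13 with array weights, and Ldha -0.016 with no normalisation.

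For he against WT, the glycolysis members higher numbered 8 with the replicate block, 12 with array set and sex, 1 with no normalisation or centring, 3 with the mean of probe sets and 11 within set B. The hypoxia members higher numbered 2 with the replicate block, 7 with array set and sex, 2 with no normalisation or centring and 1 with array weights. Hif1a gave -0.075 with no normalisation, -0.095 with centring and -0.052 with array weights. For me against he, the hypoxia members higher numbered 4 once array set was blocked, 3 with blocks for set and sex, 3 within set A and 4 within set B, and Egln1 gave -0.0036 within set A. The replicate block called 0 probe sets in every comparison. Deviations of same-numbered arrays correlated from -0.873 to 0.941, positive where both arrays lay in the same array set and negative where they did not. Since these correlations follow array set, they cannot decide whether the numbers pair the arrays.

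Array weights did not reach convergence and ran from 0.268 for he 1 to 26.6 for me 3. Over the 3 genotypes they called 22802 of 45037 probe sets. Between me and he they called 27308 of 45037, most of the array, with 18 of 24 glycolysis and 7 of 8 hypoxia members called. In that comparison the glycolysis median was 0.32, and the differences were 0.47 for Slc2a3, 1.00 for Tpi1 and 0.44 for Ankrd37.

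Leaving out 1 array in turn, probe sets called ran from 0 to 2 for me against WT, for me against he and over the 3 genotypes, with 2 without me 2. For me against WT, Slc2a1 ran from -0.23 to 0.18, Hk2 from -0.11 to 0.22, Pdk1 from -0.015 to 0.30 and Vegfa from -0.10 to 0.17. Slc2a3 ran from 0.37 to 0.50, Hif1a from 0.23 to 0.53, Ankrd37 from 0.20 to 0.42, Tpi1 from 0.22 to 0.53 and P4ha1 from 0.06 to 0.49. For he against WT, 5 to 10 glycolysis and 1 to 7 hypoxia members were higher, and Hif1a ran from -0.045 to 0.24 and Vegfa from 0.14 to 0.45. For me against he, 4 to 7 hypoxia members were higher, Tpi1 ran from 0.20 to 0.58 and Egln1 from 0.06 to 0.25.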
